A study of Homo sapiens with 32 samples.

Results

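Chromatin loops were examined at the starts of 34 human genes that act when cells shrink or swell, out of 19970 protein-coding genes. The genes encode the osmolyte program, aquaporins, heat-shock chaperones, WNK kinases with their cotransporters, the volume-regulated anion channel, a pair of TRP channels and the p38 kinase cascade. All 34 were found in the annotation (GENCODE release 44, hg38). A loop was counted at a gene when at least 1 of its 5 kb anchors lay within 10 kb of the 5′ end of the gene record. This gave 64 loops at member genes among 45629 loops in all.

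The loops come from in situ Hi-C, in which DNA segments that lie close together in the nucleus are ligated and sequenced. The cells were HEK293, a human embryonic kidney line, either wild type or labelled eGFP-YAP (the co-activator YAP joined to a green fluorescent protein). Each was left untreated or given 200 mM sorbitol for 1 h, an osmotic load under which cells lose water and shrink. The series' design asks how hyperosmotic stress changes chromatin contacts, and it describes eGFP-YAP cells as starved of serum for 1 h before sorbitol. In the labels each wild-type group has 3 samples and each eGFP-YAP group has 4, but each condition has 1 loop list, with no replicate values. No difference between conditions therefore has a replicate check, and no test was made. The growth protocol speaks of HEK293T cells where the labels say HEK293, the promoter and copy number of the eGFP-YAP construct are not given in the sources used here, and loop lists hold no expression from which the cell type could be checked. Wild-type and eGFP-YAP lists are also named for different sources, so that line and source cannot be told apart.

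The wild-type lists held 15180 loops in control and 5906 with sorbitol. The eGFP-YAP lists held 18966 and 5577 loops. The sequencing depth behind each list is unknown, so a loop missing from a list was not called there, which is not the same as absent from the cells. Intervals are 95% intervals for counting error only, and neighbouring genes and loops are not independent.

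As background, a cell placed in hypertonic medium shrinks and then takes up salt and organic osmolytes to regain water. The transcription factor NFAT5 (TonEBP) drives genes for osmolyte carriers and for aldose reductase, while WNK kinases act through OXSR1 and STK39 to switch on sodium-potassium-chloride uptake and switch off potassium-chloride loss. The p38 cascade is activated within minutes of shrinkage, and CCM2 (also named OSM) is the scaffold that holds MAP3K3 and MAP2K3 together in this response. A chromatin loop brings a gene start near a distant segment, and many loops end at sites bound by CTCF, with the CTCF motifs of the anchors pointing towards each other.

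In the wild-type control list 10 of the 34 members had a loop, 29.4% (Wilson interval 16.8 to 46.2%), against 29.2% of the other 19936 gene starts. With sorbitol the list had loops at 11 members, 32.4% (19.1 to 49.2%), against 27.8%. In eGFP-YAP cells 16 members had a loop in control, 47.1% (31.5 to 63.3%), against 37.6% of the other starts. With sorbitol 8 members had one, 23.5% (12.4 to 40.0%), against 28.6%. All 4 background shares lie within the members' intervals. At the gene-record start and the 10 kb limit, a difference from other genes was thus not detectable with this number of members. Loops at members numbered 11 in wild-type control, 15 in wild-type sorbitol, 26 in eGFP-YAP control and 12 in eGFP-YAP sorbitol.

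**Figure D1:**
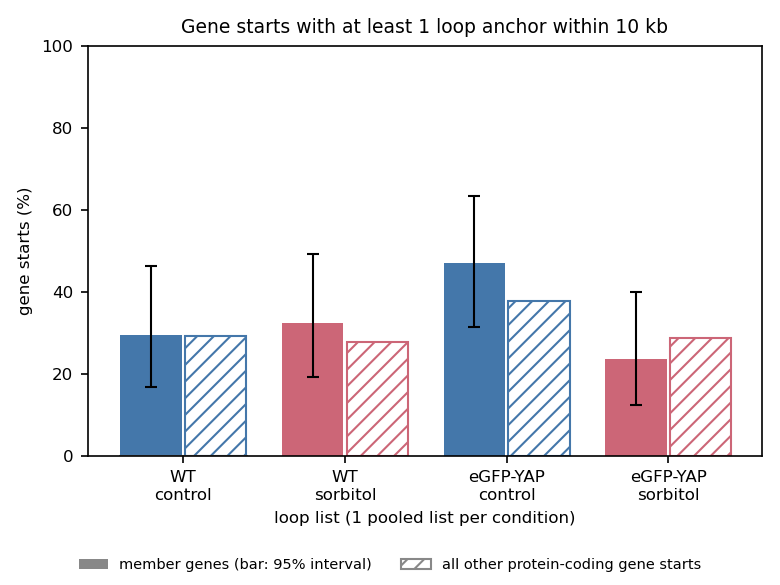
Share of gene starts (%) with at least 1 loop anchor within 10 kb, in each of the 4 lists, for the 34 member genes (filled bars, with the 95% Wilson interval) and all other protein-coding gene starts (hatched bars). The hatched bars lie between 27.8 and 37.6%, each inside the members' interval.

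The member genes with loops differed between control and sorbitol. In wild-type cells 9 members had more loops with sorbitol than in control, 26.5% (14.6 to 43.1%) against 19.0% of other starts, and 9 had fewer, 26.5% against 20.0%. In eGFP-YAP cells 5 members had more, 14.7% (6.45 to 30.1%) against 16.3%, and 13 had fewer, 38.2% (23.9 to 55.0%) against 27.4%. In both lines 1 member, CCM2, had more loops with sorbitol, 2.94% (0.521 to 14.9%) against 7.97%. In both lines 5 members had fewer, 14.7% (6.45 to 30.1%) against 11.5%: NFAT5, SLC5A3, AQP5, SLC12A2 and MAP2K3. No loop in any list was called at 8 members, 23.5% (12.4 to 40.0%) against 39.1%. The control lists were the longer ones. Each control list was also shortened to its highest scores at the length of its sorbitol list. In each, 4 members had a loop, against 12.6% (wild type) and 11.7% (eGFP-YAP) of other starts. In wild type 10 members then had more loops with sorbitol and 4 had fewer, against 23.8% and 7.40% of other starts. In eGFP-YAP 8 had more and 3 had fewer, which turns the order given above, and other starts turned in the same way, with 24.6% and 6.99%.

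**Figure D2:**
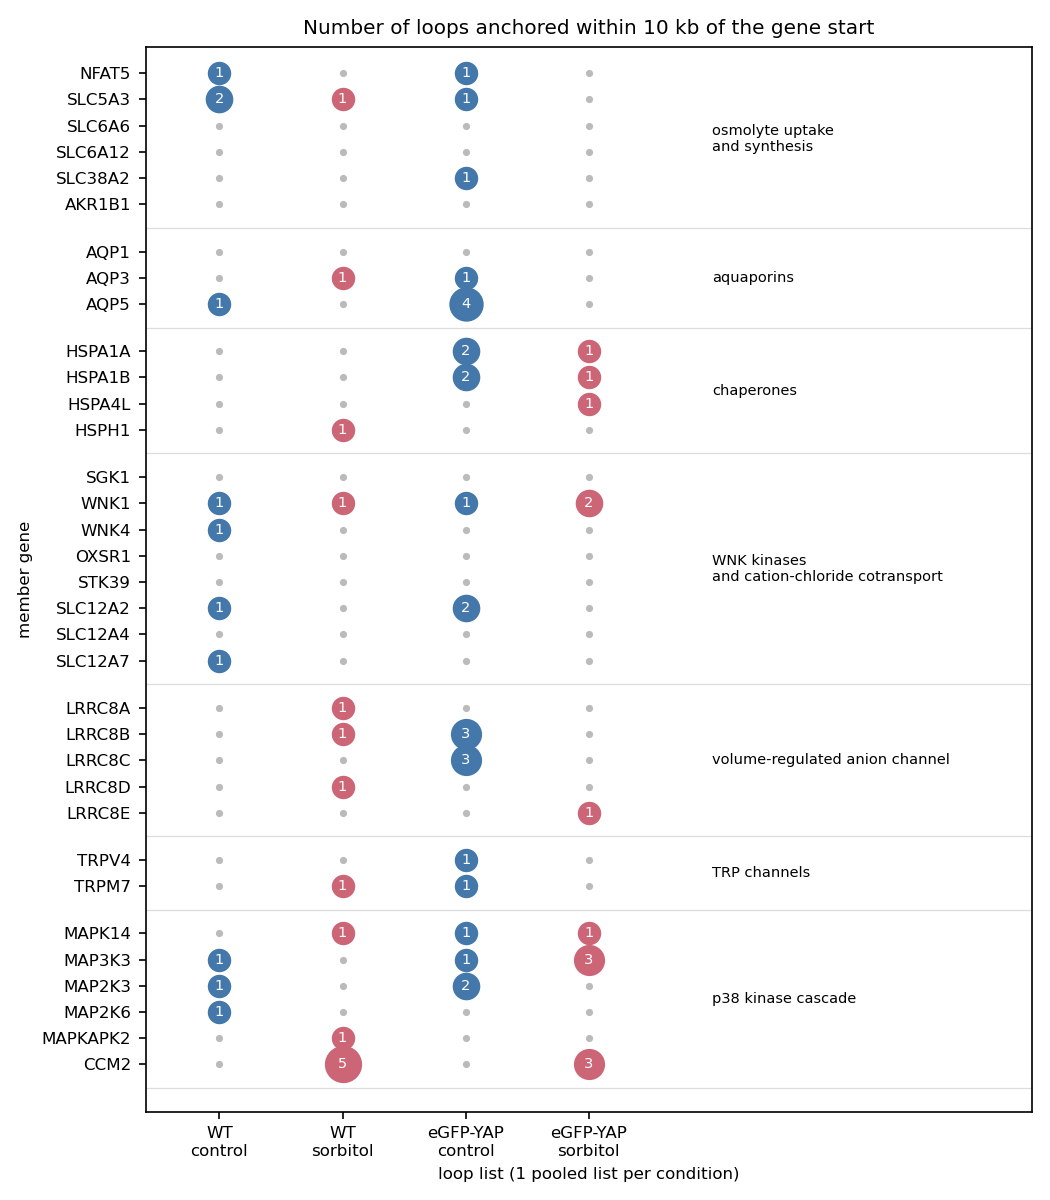
Number of loops anchored within 10 kb of each member gene's start (rows, grouped by role) in each of the 4 lists (columns); a numbered circle gives the count, blue for control and red for sorbitol, and a small grey dot marks 0. CCM2 has 5 and 3 loops in the sorbitol lists and 0 in both control lists, while NFAT5, AQP5, SLC12A2 and MAP2K3 have loops in both control lists and 0 in both sorbitol lists.

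The p38 cascade held the members with the most loops under sorbitol. In each of the 4 lists 3 of its 6 genes had a loop, but not the same 3: MAP2K3, MAP2K6 and MAP3K3 in wild-type control, CCM2, MAPK14 and MAPKAPK2 in wild-type sorbitol, MAP2K3, MAP3K3 and MAPK14 in eGFP-YAP control, and CCM2, MAP3K3 and MAPK14 in eGFP-YAP sorbitol.

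CCM2, the scaffold, starts at chr7:44999475 on the plus strand. It had 0 loops in wild-type control, 5 in wild-type sorbitol, 0 in eGFP-YAP control and 3 in eGFP-YAP sorbitol. Loops in both sorbitol lists and in neither control list were found at CCM2 alone among the members, 2.94%, and at 5.22% of other gene starts. All 8 loops led upstream. In wild-type sorbitol the longest joined chr7:44985001-44990000 to chr7:44575001-44580000, over 410 kb. Its near anchor lay 9.475 kb from the CCM2 start and was nearer to the start of MYO1G, so it is not CCM2's own. The far anchor holds the start of DDX56, a nucleolar RNA helicase, and lies within 10 kb of TMED4. The same stretch was joined to CCM2 in eGFP-YAP sorbitol, from chr7:44990001-44995000 to chr7:44580001-44585000, again over 410 kb. A further pair of loops ended at the start of ZMIZ2, a transcriptional co-activator, at chr7:44745001-44750000, over 240 kb (wild type) and 250 kb (eGFP-YAP). The wild-type one began at the same anchor near MYO1G, and the eGFP-YAP one at chr7:44995001-45000000, over the CCM2 start. Another shared loop ended at the start of PURB, which binds purine-rich single-stranded DNA, and used identical anchors in both lines, chr7:44885001-44890000 and chr7:44990001-44995000, 105 kb apart. The remaining wild-type loops ended at the start of H2AZ2, a histone variant gene (155 kb), and at a site with no gene start within 10 kb (220 kb).

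Of these 3 loops shared by the lines, the TMED4 and ZMIZ2 loops stood high by the caller's peak score, which ranks loops within 1 list, and the PURB loop near the middle. The DDX56 and TMED4 loop stood at percentile 93.9 in wild type and 85.8 in eGFP-YAP, the ZMIZ2 loop at 91.0 and 94.1, and the PURB loop at 58.0 and 65.1. The contrast with control depends on the 10 kb limit. The nearest control anchor lay 24.5 kb from the CCM2 start in the wild-type list and 14.5 kb from it in the eGFP-YAP list. The latter belonged to a loop from chr7:44980001-44985000 to chr7:44585001-44590000, at percentile 11.9, that matched the sorbitol loop of that line to within 10 kb at both ends.

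In the window from -470 to 100 kb around the CCM2 start, the control lists held 5 loops (wild type) and 7 (eGFP-YAP), and the sorbitol lists 10 and 6. A segment within 10 kb of the TMED4 start was an end of loops in every list, and the sorbitol lists differed in which loops reached the CCM2 start. The 250 bases upstream of that start (chr7:44999225-44999474, plus strand, from the hg38 genome) are shown because 1 of the 8 loops had an anchor over them and 2 had an anchor that began 0.526 kb past the start. CpG dinucleotides are in capitals. The stretch is 42% G or C and holds 5 CpG. The RefSeq start of CCM2 lies 271 bases further on, and the 250 bases before it are 65.6% G or C with 23 CpG, so this value depends on the start used.
CCM2 upstream: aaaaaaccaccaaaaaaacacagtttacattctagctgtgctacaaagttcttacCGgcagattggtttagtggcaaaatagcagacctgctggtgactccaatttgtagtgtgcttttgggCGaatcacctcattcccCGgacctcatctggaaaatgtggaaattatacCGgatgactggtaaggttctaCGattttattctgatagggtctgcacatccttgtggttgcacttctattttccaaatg

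**Figure D3:**
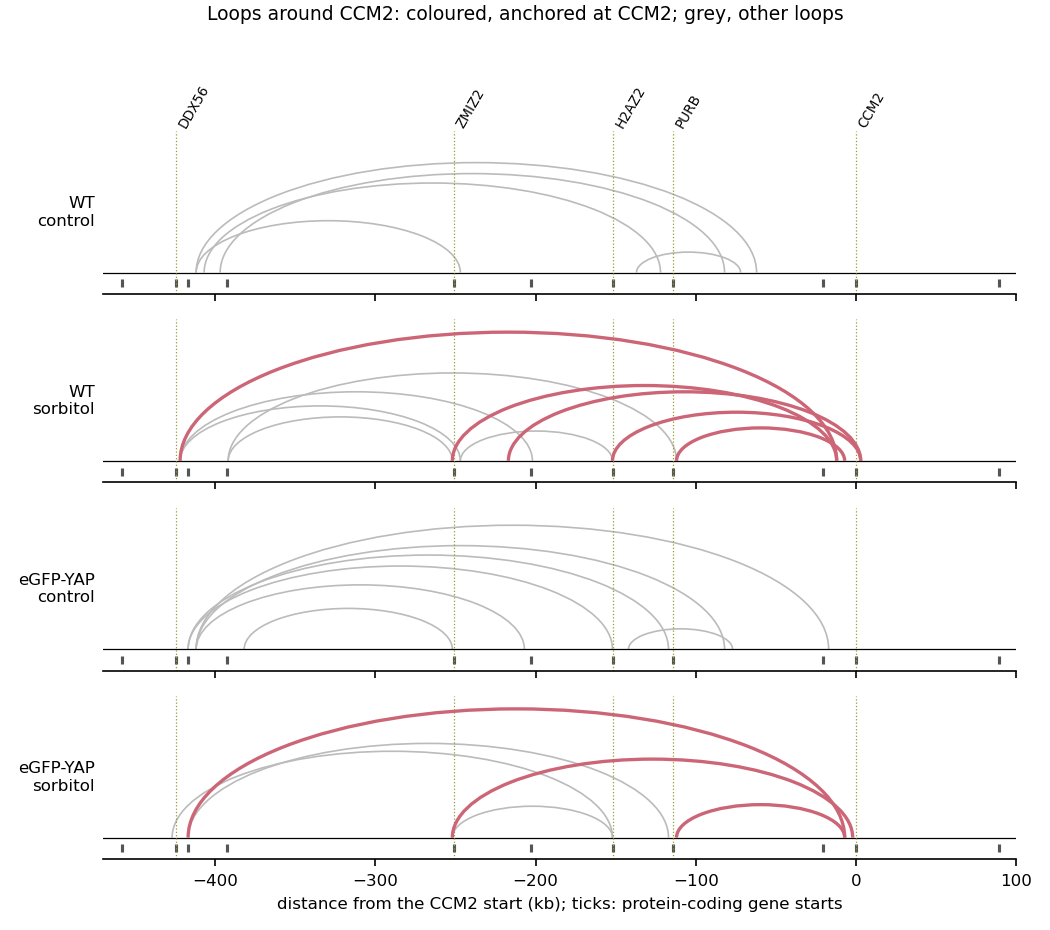
Loops around CCM2 in the 4 lists; the x axis is the distance from the CCM2 start in kb, each arc joins the centres of the anchors of 1 loop, coloured arcs end within 10 kb of the CCM2 start and grey arcs do not, and ticks mark protein-coding gene starts. Coloured arcs are drawn in the sorbitol lists, 5 (wild type) and 3 (eGFP-YAP), and none in the control lists, where 1 eGFP-YAP arc ends 14.5 kb away.

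MAPK14, the p38 alpha kinase itself, starts at chr6:36027782 and had 0, 1, 1 and 1 loops in the order wild-type control, wild-type sorbitol, eGFP-YAP control and eGFP-YAP sorbitol. The start lay inside the own anchor, chr6:36025001-36030000, each time. Both sorbitol loops ran upstream to SRPK1, a kinase of splicing factors, at chr6:35915001-35920000 in wild type (110 kb) and chr6:35920001-35925000 in eGFP-YAP (105 kb), and the lists matched there. The eGFP-YAP control loop ran the other way, 70 kb into MAPK14 itself, at chr6:36095001-36100000. The number of loops was thus equal in the eGFP-YAP lists, but the partner differed.

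MAP3K3 (MEKK3), which activates the p38 kinases' own activators, starts at chr17:63622415 and had 1, 0, 1 and 3 loops. A loop over 195 kb in wild-type control, and one of 185 kb in eGFP-YAP control, ended at TANC2, at percentiles 72.2 and 81.5. The identical anchors were called again in eGFP-YAP sorbitol, at percentile 7.29. The other eGFP-YAP sorbitol loops of MAP3K3 ran to the start of DCAF7 (70 kb, percentile 0.35) and to SMARCD2, a subunit of SWI/SNF remodelling complexes (225 kb, percentile 30.9). The counts at the MAP3K3 gene-record start therefore ran opposite ways in the lines, 1 fewer with sorbitol in wild type and 2 more in eGFP-YAP.

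The kinases MAP2K3 and MAP2K6, which phosphorylate p38, had loops in control lists and 0 in both sorbitol lists at the start of the gene record. MAP2K3 (chr17:21284672) had 1, 0, 2 and 0 loops. A loop from chr17:21280001-21285000 to chr17:21510001-21515000, over 230 kb, used identical anchors in both control lists and stood at percentiles 87.0 and 87.2. The second eGFP-YAP control loop ran to the start of DHRS7B (160 kb). MAP2K6 had 1, 0, 0 and 0 loops. Its wild-type loop, 115 kb long, began 9.70 kb from the gene start and matched a loop of the eGFP-YAP control list that lay beyond the limit. MAPKAPK2, a substrate kinase of p38, had 0, 1, 0 and 0 loops, with a 50 kb loop to DYRK3 in wild-type sorbitol.

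Of the 6 genes of osmolyte uptake and synthesis, 2 had a loop in wild-type control, 1 in wild-type sorbitol, 3 in eGFP-YAP control and 0 in eGFP-YAP sorbitol, counts too small to set beside the background shares given above. NFAT5, the transcription factor of the program, starts at chr16:69565094 and had 1, 0, 1 and 0 loops. Both control loops spanned 165 kb to a segment that holds the start of CYB5B or lies near it and also has TERF2 within 10 kb, from chr16:69565001-69570000 to chr16:69400001-69405000 in wild type and from chr16:69560001-69565000 to chr16:69395001-69400000 in eGFP-YAP. They matched between the lines, at percentiles 61.2 and 29.2. The nearest anchor in the sorbitol lists lay 130.1 kb (wild type) and 189.9 kb (eGFP-YAP) from the NFAT5 start.

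SLC5A3, the carrier of myo-inositol, starts at chr21:34073578 beside MRPS6 and had 2, 1, 1 and 0 loops. The wild-type control loops ran both ways, 130 kb upstream (percentile 65.0) and 270 kb downstream. The downstream loop (percentile 92.1) matched the 275 kb loop of eGFP-YAP control (percentile 68.0). The wild-type sorbitol loop ran 165 kb upstream to ATP5PO, a subunit of ATP synthase, and had no match at 10 kb in control. SLC38A2, a carrier of neutral amino acids, had 0, 0, 1 and 0 loops, over 215 kb. SLC6A6 (taurine), SLC6A12 (betaine) and AKR1B1 (aldose reductase, which makes sorbitol inside cells) had 0 loops in all 4 lists. At SLC6A12 the nearest anchor of any list lay at least 175 kb away.

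The aquaporins, the water channels, had loops at 1, 1, 2 and 0 of 3 genes. AQP5 had 1, 0, 4 and 0 loops and lies beside AQP2 and AQP6, so its anchors are not its own. The 4 loops of eGFP-YAP control ran 70 kb to RACGAP1, 100 kb to ASIC1, 210 kb to CERS5 and 350 kb to a site with no gene start, and they stood between percentiles 2.28 and 83.9. AQP3 had 0, 1, 1 and 0 loops with different partners, 70 kb away in wild-type sorbitol and 155 kb away at NFX1 in eGFP-YAP control. AQP1 had 0 in all lists.

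The chaperone genes had loops at 0, 1, 2 and 3 of 4 genes. HSPA1A and HSPA1B, which encode stress-inducible HSP70, lie side by side in the gene-dense class III region of the histocompatibility complex, with 17 and 16 other gene starts within 100 kb. Each had 0, 0, 2 and 1 loops. In eGFP-YAP control they shared a loop of 165 kb to the C6orf47 and GPANK1 region, HSPA1A had another of 150 kb to NELFE, a subunit of the negative elongation factor, and HSPA1B another of 135 kb to STK19 and DXO. The eGFP-YAP sorbitol loop was also shared and ran 285 kb to DDX39B, an RNA helicase of mRNA export. All of these stood low, between percentiles 10.8 and 28.8. HSPA4L had 0, 0, 0 and 1 loops (145 kb, to INTU, percentile 72.6), and HSPH1, which encodes HSP105, had 0, 1, 0 and 0 (35 kb, to B3GLCT, percentile 14.6).

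Reads from HSPA1A and HSPA1B can be hard to place, because the genes are near-identical copies. Their upstream stretches (chr6:31815293-31815542 and chr6:31827488-31827737, plus strand, from the hg38 genome) are printed to show this, with the heat-shock element letters GAANNTTC in capitals. Aligned at a shift of 1 base, 235 of 249 bases were identical, 94.4%. The element lay 106 bases upstream of HSPA1A and 105 bases upstream of HSPA1B.
HSPA1A upstream: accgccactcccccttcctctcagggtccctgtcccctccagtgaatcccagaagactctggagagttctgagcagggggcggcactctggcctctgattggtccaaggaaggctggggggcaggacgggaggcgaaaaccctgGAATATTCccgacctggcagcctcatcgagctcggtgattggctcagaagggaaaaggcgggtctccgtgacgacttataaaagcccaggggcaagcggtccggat
HSPA1B upstream: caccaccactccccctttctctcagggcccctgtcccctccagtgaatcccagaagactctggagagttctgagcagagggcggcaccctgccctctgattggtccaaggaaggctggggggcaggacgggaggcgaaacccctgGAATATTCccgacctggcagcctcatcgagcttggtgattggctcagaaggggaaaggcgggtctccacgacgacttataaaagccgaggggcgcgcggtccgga

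RefSeq promoter windows (250 bases before to 50 after the start, GRCh38.p14) matched 28 of the 34 members. On either strand, GAANNTTC was found in 2 of the 28, 7.14%, against 5.55% of 15287 windows of other genes. The tonicity element TonE, the site of NFAT5, was found in 1, at SLC38A2, 27 bases after the start, 3.57% against 3.85%.

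WNK kinases and the cation-chloride cotransporters had loops at 4, 1, 2 and 1 of 8 genes. WNK1, a chloride- and crowding-sensitive kinase, starts at chr12:752579 and was the member with loops in all 4 lists, with 1, 1, 1 and 2. The control loops, 160 kb long (wild type) and 175 kb long (eGFP-YAP), and the wild-type sorbitol loop of 170 kb all ended inside NINJ2, at percentiles 55.4, 53.0 and 39.3, and the wild-type loops matched each other. In eGFP-YAP sorbitol the loops from the WNK1 start ran instead 360 kb to KDM5A and CCDC77 (percentile 62.8) and 60 kb into WNK1 itself (percentile 8.15). A loop from NINJ2 was called in that list too, at percentile 22.1. It matched the wild-type control loop to within 10 kb at both ends, but its near anchor, chr12:730001-735000, lay beyond the 10 kb limit.

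WNK4 had 1, 0, 0 and 0 loops, a 185 kb loop whose own anchor also lies near VPS25. SLC12A2 (NKCC1), which carries sodium, potassium and chloride inwards, starts at chr5:128083766 and had 1, 0, 2 and 0 loops. Its partners differed: 210 kb away in wild-type control, and 170 kb and 520 kb away in eGFP-YAP control. In both sorbitol lists the nearest anchor lay 1544 kb from its start. SLC12A7 (KCC4), which carries potassium and chloride outwards, had 1, 0, 0 and 0 loops (185 kb). OXSR1 and STK39, the kinases between WNK and the cotransporters, SLC12A4 (KCC1) and SGK1, a kinase induced by cell shrinkage, had 0 in all lists.

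The zeros at some members depend on which start is used. SGK1 has 26 annotated transcript starts spread over 146 kb. Counted at any of them, SGK1 had 11 loops in wild-type control, 2 in wild-type sorbitol, 9 in eGFP-YAP control and 2 in eGFP-YAP sorbitol, the most of any member in the control lists. The 5′ end of its gene record is the farthest upstream of these starts. Counted in this way, LRRC8C had 3, 0, 6 and 0 loops, MAP2K6 had 3, 0, 4 and 0, SLC6A6 had 3, 1, 1 and 0, and TRPM7 had 0, 4, 1 and 1. MAP2K3 had 3, 0, 2 and 1, so that its zero in eGFP-YAP sorbitol was lost, and MAPKAPK2 had 1, 1, 2 and 1. SLC6A12 still had 0 in all lists.

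The volume-regulated anion channel genes had loops at 0, 3, 2 and 1 of 5 genes. LRRC8A, the subunit every such channel needs, had 0, 1, 0 and 0 loops. That loop ran 160 kb to MIGA2 and SH3GLB2 and stood at percentile 2.21. LRRC8E had 0, 0, 0 and 1, a 355 kb loop to PNPLA6 whose own anchor also lies near MAP2K7.

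LRRC8B, LRRC8C and LRRC8D lie in a row on chromosome 1. LRRC8B (chr1:89524829) had 0, 1, 3 and 0 loops, LRRC8C had 0, 0, 3 and 0, and LRRC8D had 0, 1, 0 and 0. The loops shared a few far ends. KYAT3 and RBMXL1 were reached from LRRC8B over 520 kb in wild-type sorbitol and 545 kb in eGFP-YAP control, and from LRRC8C over 640 kb in eGFP-YAP control. ZNF326 on the other side was reached from LRRC8B (460 kb) and LRRC8C (355 kb) in eGFP-YAP control and from LRRC8D (165 kb) in wild-type sorbitol. In eGFP-YAP sorbitol the window from -600 to 520 kb around the LRRC8B start held 5 loops, and 1 of them joined the KYAT3 and ZNF326 ends to each other, at percentile 83.8, with 0 at the LRRC8 starts. In eGFP-YAP control a loop joined chr1:88975001-88980000, beyond 10 kb of the KYAT3 start, to the ZNF326 end. The same window held 12 loops in wild-type control, 7 in wild-type sorbitol and 17 in eGFP-YAP control, of which 0, 2 and 6 were at LRRC8B, LRRC8C or LRRC8D.

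**Figure D4:**
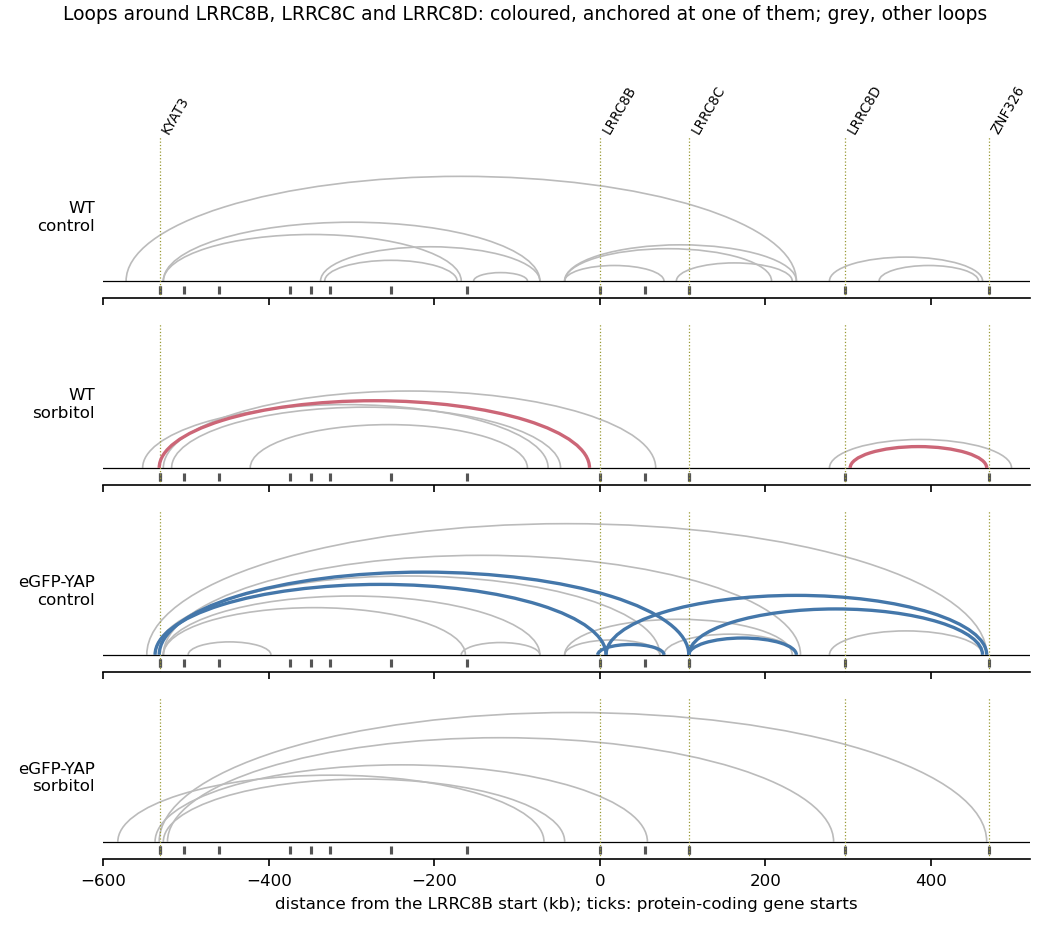
Loops around LRRC8B, LRRC8C and LRRC8D in the 4 lists; the x axis is the distance from the LRRC8B start in kb, each arc joins the anchor centres of 1 loop, coloured arcs end within 10 kb of the start of one of the LRRC8 genes and grey arcs do not, and ticks mark protein-coding gene starts. Coloured arcs number 0 in wild-type control, 2 in wild-type sorbitol, 6 in eGFP-YAP control and 0 in eGFP-YAP sorbitol, and KYAT3 and ZNF326 lie at their outer ends.

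The TRP channels had loops at 0, 1, 2 and 0 of 2 genes. TRPM7, a magnesium-permeable channel with its own kinase domain, had 0, 1, 1 and 0 loops, at percentiles 76.8 and 79.9. Both ran upstream of the gene, 220 kb to AP4E1 in wild-type sorbitol and 200 kb in eGFP-YAP control, and they were not matched at 10 kb. TRPV4, a channel opened by swelling, had 0, 0, 1 and 0 loops, 35 kb into its own gene. At the gene-record start AQP3, TRPM7 and LRRC8B thus had 1 more loop with sorbitol in wild type and fewer in eGFP-YAP.

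Few loops were called at the same place in control and sorbitol. In wild-type sorbitol 14 of the 15 member loops had no match in control, 93.3% (exact interval 68.1 to 99.8%), against 83.3% of loops at other gene starts. In eGFP-YAP sorbitol it was 10 of 12, 83.3% (51.6 to 97.9%), against 75%. Among control loops, 10 of 11 in wild type, 90.9% (58.7 to 99.8%), and 25 of 26 in eGFP-YAP, 96.2% (80.4 to 99.9%), had no match with sorbitol, against 89.1% and 88.4%. Agreement across the lines within a condition was 7 of 11 for the wild-type control loops, 63.6% (30.8 to 89.1%), against 47.5% at other starts. For wild-type sorbitol it was 4 of 15, 26.7% (7.79 to 55.1%) against 28.9%. For eGFP-YAP control it was 5 of 26, 19.2% (6.55 to 39.4%) against 33.5%, and for eGFP-YAP sorbitol 4 of 12, 33.3% (9.92 to 65.1%) against 28.3%. Each background share lay within the members' interval. The 4 sorbitol loops shared by the lines were those of CCM2 to TMED4, ZMIZ2 and PURB and that of MAPK14 to SRPK1.

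What lay at the far end differed more between the lists than the number of members with a loop. A gene and a loop at it were counted as 1 pair. The far anchor lay within 10 kb of another gene start in 3 of 11 pairs in wild-type control, 27.3% (exact interval 6.02 to 61.0%), and in 12 of 15 with sorbitol, 80.0% (51.9 to 95.7%). In eGFP-YAP cells it was 14 of 27 in control, 51.9% (31.9 to 71.3%), and 11 of 13 with sorbitol, 84.6% (54.6 to 98.1%). The other gene starts gave 35.6%, 75.7%, 41.8% and 76.5% in the same order, so the members followed the same order of lists as all genes. The far anchor lay upstream of the member in 7 of 11, 12 of 15, 11 of 27 and 11 of 13 pairs, and CCM2 alone gave 5 of the 12 and 3 of the 11 sorbitol pairs. At other starts the upstream share was between 48.8 and 50.9%.

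**Figure D5:**
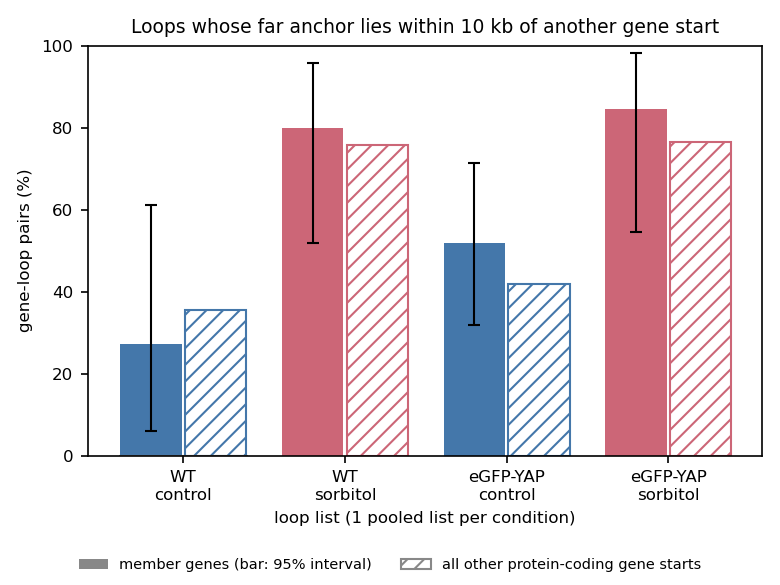
Share of gene-loop pairs (%) whose far anchor lies within 10 kb of another protein-coding gene start, in each of the 4 lists, for member genes (filled bars, with the exact 95% interval) and all other gene starts (hatched bars). The sorbitol bars of members stand at 80.0 and 84.6% and the control bars at 27.3 and 51.9%, beside 75.7, 76.5, 35.6 and 41.8% for other starts.

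Loops at members were of ordinary length. The median span was 185 kb (80 to 270 kb) in wild-type control, 165 kb (35 to 520 kb) in wild-type sorbitol, 172.5 kb (35 to 640 kb) in eGFP-YAP control and 205 kb (60 to 410 kb) in eGFP-YAP sorbitol. Loops at other starts had medians of 185, 185, 210 and 200 kb. The median score percentile of member loops was 55.4, 39.0, 29.0 and 27.0 in the same order, against 49.3, 52.0, 45.8 and 46.9. Member starts could also lie between the anchors of a loop. Only spanning loops with no anchor within 10 kb of the start were counted here. A loop of the wild-type control list spanned the starts of 24 members, 70.6% (Wilson interval 53.8 to 83.2%), against 48.8% of other starts. The counts were 17 in wild-type sorbitol (50%, 34.1 to 65.9%, against 35.9%), 28 in eGFP-YAP control (82.4%, 66.5 to 91.7%, against 65.4%) and 19 in eGFP-YAP sorbitol (55.9%, 39.5 to 71.1%, against 41.7%). The background share lay below the members' interval in both control lists and within it in both sorbitol lists, and members that neighbour each other share spanning loops.

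The CTCF motif was looked for in the anchors, on both strands with at most 1 mismatch over 14 bases. It was found in 5 of 21 member anchors in wild-type control, 23.8%, in 2 of 28 in wild-type sorbitol, 7.14% (exact interval 0.877 to 23.5%), in 13 of 46 in eGFP-YAP control, 28.3%, and in 5 of 22 in eGFP-YAP sorbitol, 22.7%. Anchors of loops at other gene starts held it in 27.4%, 21.2%, 33.0% and 25.1%. The wild-type sorbitol anchors with a motif belonged to AQP3 and MAPKAPK2. None of the anchors of the CCM2 loops held one, nor did those of the sorbitol loops of MAPK14. Some of the matches in loops called in both lines or in both conditions are printed to show these ends, written 5′ to 3′ on the strand of the motif with its 14 bases in capitals and 8 bases on either side. At WNK1 and MAP3K3 in eGFP-YAP cells the motifs of the anchors point towards each other, plus on the left and minus on the right. Outside genes means outside protein-coding genes, as other gene types were not checked.
WNK1 start, chr12:751417-751446, minus strand, outside genes: ggggacgaGCACCAGGGGGCACcagaccga
WNK1 far anchor, chr12:576266-576295, plus strand, intron of NINJ2: gccgttgtCCACCAGGGGGCGCcaggaaac
MAP3K3 own anchor, chr17:63612406-63612435, minus strand, outside genes: gcagggcaCCACTAGGGGTCAGtgcagagc
MAP3K3 far anchor, chr17:63428200-63428229, plus strand, outside genes: gagggtagCGAGCAGAGGGCACagctccca
MAP2K3 own anchor, chr17:21280164-21280193, plus strand, outside genes: ggccctggTCACCAGAGGGCGCtgtggggc
NFAT5 far anchor, chr16:69396197-69396226, plus strand, intron of TERF2: ttaaacttCCAGCAGGGGGCAGcaacgatt
SLC5A3 far anchor, chr21:34348079-34348108, minus strand, outside genes: ggtagctgCCGCCAGGTGGCGCcaaatctg

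The WNK1 start motif lies in the anchor that made the NINJ2 loop in eGFP-YAP control and both loops of eGFP-YAP sorbitol. The MAP3K3 motifs lie in anchors called in both eGFP-YAP lists, and the MAP2K3 motif in an anchor called in both control lists. The NFAT5 and SLC5A3 motifs lie in anchors of the eGFP-YAP control list only, and the anchors of the matched wild-type control loops held no motif. Loops with motifs on a single strand at each anchor numbered 1, 0, 3 and 2 in the 4 lists, and the motifs pointed towards each other in 0, 0, 3 and 2 of them. For loops at other gene starts it was 301 of 463, 74 of 154, 770 of 1024 and 182 of 280. The member counts are too small to differ from these. These letters were read from the reference genome, and whether CTCF was bound in these cells was not tested.

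A further 51 genes of the same pathways were listed by role beside the members. In wild type 18 had loops in control, 35.3% (23.6 to 49.0%) against 29.2% of other starts, and 14 with sorbitol, 27.5% (17.1 to 40.9%) against 27.8%. In eGFP-YAP 30 had loops in control, 58.8% (45.2 to 71.2%) against 37.6%, and 13 with sorbitol, 25.5% (15.5 to 38.9%) against 28.6%. The background share lay below the interval in eGFP-YAP control and within it in the other lists. In wild type 11 had more loops with sorbitol, 21.6% against 19.0% of other starts, and 13 had fewer, 25.5% against 20.0%. In eGFP-YAP 4 had more, 7.84% against 16.3%, and 26 had fewer, 51.0% (37.7 to 64.1%) against 27.4%. In both lines DNAJB1 and HSP90AA1, which encode chaperones, had more, 3.92% of the 51 against 7.97%, and 11 had fewer, 21.6% against 11.5%. Loops in both control lists and in neither sorbitol list were found at 9 of the 51, 17.6% (9.57 to 30.3%), and at 4 of the 34 members, 11.8% (4.67 to 26.6%), against 7.57% of other gene starts. The 9 were the water channels AQP2 and AQP8, the cotransporters SLC12A3 and SLC12A5, CAB39, KLHL3 and NEDD4L of the WNK and SGK1 pathways, and the kinases MAP3K5 and MAPK13. None of the 51 had loops in both sorbitol lists and neither control list. MAPK13 lies beside MAPK14, and its control loops ran away from MAPK14.

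The choice of the 10 kb limit left some members near it. The members just inside and just outside were MAP2K6 at 9.70 kb and SLC38A2 at 12.2 kb in wild-type control, LRRC8B at 9.83 kb and HSPA1A at 10.5 kb in wild-type sorbitol, MAP3K3 at 7.42 kb and WNK4 at 14.4 kb in eGFP-YAP control, and HSPA1A at 9.46 kb and OXSR1 at 10.1 kb in eGFP-YAP sorbitol. Members also lay in slightly sparser surroundings, with a median of 2 other gene starts within 100 kb against 3. Among 8598 other gene starts with 1 to 3 such neighbours, 29.3%, 24.8%, 37.2% and 26.6% had a loop in the 4 lists, again within the members' intervals.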

How the data were processed

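Hi-C libraries were cut with MboI, per the labels' protocols. The authors deposited 1 loop list per condition, with column headers of the SIP caller. Each line gives both 5 kb anchors as coordinates, a peak score on no fixed scale, a contact value that is also a score (not used here) and, per the file headers, a probability of enrichment, a fraction of at least 0.9 in these lists. The build was hg38 (GRCh38), per the submitters' processing notes, and all anchors lay within its chromosome lengths. Caller settings, the aligner and which replicates were combined are not given in the sources used here. A few loops with anchors in reverse order were sorted (2, 1, 1 and 0 in the 4 lists), and 0 columns lacked a group.

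The starts of 19970 protein-coding genes on 23 chromosomes were compared with the anchors in Python 3.11.15 (pandas 2.3.3, NumPy 2.4.6, SciPy 1.17.1, matplotlib 3.10.9). Loops of different lists matched when both anchors lay within 10 kb of each other. Peak scores were ranked as percentiles within a list. All members were described, and the other pathway genes were counted by class. The members, the gene lists and the tests were chosen with earlier results of these data known. Scripts were tested on planted loops and motifs. Alternatives changed the distance, the match, the starts and the lists, and 18 of 32 samples were not used here.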

Additional observations from a re-analysis of the deposited data

Results flagged for a closer look

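At 4 members the counts ran opposite ways in the lines, and this difference was not tested, as there is 1 list per condition. LRRC8B had 1 more loop with sorbitol in wild type (a change of 1) and 3 fewer in eGFP-YAP (a change of -3). AQP3 and TRPM7 each changed by 1 in wild type and by -1 in eGFP-YAP. MAP3K3 changed by -1 in wild type and by 2 in eGFP-YAP. These counts are at the gene-record start. With all transcript starts, MAP3K3 had 1 and 0 loops in wild-type control and sorbitol and 4 and 3 in eGFP-YAP, fewer with sorbitol in both lines. TRPM7 then had 0 and 4 in wild type and 1 and 1 in eGFP-YAP. The counts of LRRC8B and AQP3 stayed the same. At the gene-record start, such opposite changes were found at 11.8% of the 34 members and at 5.57% of the other gene starts (1111 of 19936). The Wilson interval for 4 of 34 is 4.67 to 26.6%, which holds the share of other gene starts. Of the loops counted here, the LRRC8B loops to KYAT3 shared their far end in both lines but began at different anchors, and no loop of AQP3, TRPM7 or LRRC8B matched between the wild-type sorbitol and eGFP-YAP control lists.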

How the results depend on the processing

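No paired analysis was possible because each condition has 1 list with no replicate numbers. A count was taken as moved when it changed by more than 1.5 times, and a share when it left the 95% interval of its reported value. Of the alternative values for members, 45 stayed by this measure and 43 moved, and 50 of 56 for other gene starts moved. In the order wild-type control, wild-type sorbitol, eGFP-YAP control and eGFP-YAP sorbitol, members with a loop numbered 10, 11, 16 and 8. With the start inside the anchor they numbered 3, 3, 10 and 5, against 8.28%, 12.7%, 13% and 13.7% of other starts. The Wilson interval for 10 of 34 is 16.8 to 46.2%, and the share of other starts in eGFP-YAP control lay below it. Members with more sorbitol loops then numbered 3 in each line, against 11.4% and 11.2%. Those with fewer numbered 3 and 7, against 6.93% and 10.3%. At 5 kb wild-type control had 6, against 20.2% of other starts, and at 25 kb the control lists had 18 and 25, against 48.8% and 59.2%. With all transcript starts the control lists had 17 and 26 of the 34 members, against 42.5% and 51.3% of other genes. The sorbitol lists had 14 and 12, against 34% and 34.4%. Members with fewer loops under sorbitol numbered 16 (wild type) and 24 (eGFP-YAP), against 29.2% and 38.4%, and 3 had more in eGFP-YAP, against 15.7%. The Wilson interval is 31.5 to 63.3% for 16 of 34 and 53.8 to 83.2% for 24 of 34, both above the shares of other genes. For 17 of 34 it is 34.1 to 65.9%, which holds the 42.5% of other genes. No interval was computed for the other counts with all transcript starts. The lack of a detectable difference from other genes was thus shown only at the gene-record start with the 10 kb limit. In the upper 50% of each list by score, members with a loop numbered 6, 2, 9 and 3, against 15.9%, 16.7%, 19.4% and 14.9% of other starts. Those with more sorbitol loops numbered 2 in each line, against 12.9% and 10.1%, and those with fewer numbered 8 in eGFP-YAP, against 15.7%. With control lists shortened to the sorbitol lists' length, 4 and 4 members had a control loop, against 12.6% and 11.7% of other starts. Then 4 and 3 had fewer with sorbitol, against 7.4% and 6.99%, and 8 had more in eGFP-YAP, against 24.6%. The share of sorbitol loops with no control match became 100% in wild type with the start inside the anchor, at 5 kb, in the upper 50%, with the shortened control list and at a match distance of 0 kb, and 100% in eGFP-YAP with the start inside the anchor and in the upper 50%. The partner alternatives were chosen after the data were seen. With a gene start inside the far anchor, the shares were 0%, 40.0%, 29.6% and 46.2% in place of 27.3%, 80.0%, 51.9% and 84.6%. In the upper 50% both sorbitol shares were 100%, each 5 of 5 pairs, and CCM2 gave most of the pairs in both. There eGFP-YAP control had 22.2%, 2 of 9, and with shortened lists it had 25%, 1 of 4. Other gene starts were not counted for these alternatives. Shorter lists or a tighter limit came with fewer members with a loop, and the cause was not tested. Depth limits every zero: it is unknown, and the lists name called loops only.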
